A study of Mus musculus with 9 samples.

Results

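Eosinophil/Basophil prog is the name that the depositors of this series gave to 1 of the 17 cell populations of mouse bone marrow. It was chosen here by its name in the table of top marker genes, where 20 of the 293 entries belong to it, each for a different gene. The data are droplet-based single-cell RNA-Seq of mononuclear marrow cells from 9 C57BL/KaLwRij mice, a strain that accepts the 5TGM1 myeloma line, and all mice were 12 weeks old by label. By label, 2 samples were Control, 3 were PBS (the vehicle) and 3 were CST6 (the cystatin M/E protein of the mouse, made as a recombinant, which blocks cysteine proteases of lysosomes), while 1 sample had no label for its agent. In the study, PBS and CST6 mice had been injected with GFP-marked 5TGM1 cells and controls had not; mononuclear cells were taken by density separation and GFP+ cells were sorted away. The title of 1 PBS sample follows the titles of the controls, which leaves the group of single samples in doubt. An entry sets one population against the rest of the cells, over all mice together. All values below are therefore pooled values as deposited, without a value per mouse and without replicate error, and the table holds neither depth nor cell numbers. The populations were formed from the expression of the same cells, so no entry was tested, and the effects of tumor and CST6 on this population were not analysed here.

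Basophils and eosinophils are rare granulocytes that arise in the marrow from progenitors in which the transcription factor GATA2 acts early. Basophils, like mast cells, bind IgE through a high-affinity receptor and release stored mediators and granule proteases when an allergen links the bound IgE. Eosinophils instead fill their granules with cationic proteins such as eosinophil peroxidase and major basic protein. Interleukin-3 drives basophil growth and interleukin-5 that of eosinophils.

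The 5 marker genes set for this population (Prss34, Mcpt8, Cpa3, Gata2 and Fcer1a) were all listed, and they were the 5 with the highest log2 fold changes of the 20. They were chosen with earlier results of these data known, so their place in the list is no independent check of the name. Of 22 further basophil and mast cell genes, Ms4a2 and Ccl4 were listed. None of the 11 eosinophil genes was listed for this population, among them the genes of eosinophil peroxidase (Epx), major basic protein (Prg2) and the interleukin-5 receptor (Il5ra). Of those 11, only the transcription factor gene Cebpe appeared in the table at all, and for another population. The leading genes were thus mainly those of basophils and mast cells, while Gata2 acts early in progenitors of eosinophils too. Of the 22 further basophil and mast cell genes, 20 were not listed either. Genes missing from the list therefore do not tell the basophil and eosinophil parts of the name apart. The table holds at most 20 genes per population, and nothing is known here of the level of a gene that is not listed.

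The sequences upstream of 6 of these genes are shown because they encode the proteases, the receptor and the transcription factor that lead the list. Each line gives the 250 bases before the RefSeq start of the gene (GRCm38.p6, the build that mm10 names), 5′ to 3′ on the gene's strand. For Gata2, the more upstream of its starts was taken. The RefSeq starts of Mcpt8 and Fcer1a differ from those of GENCODE M21, whose positions are given further below. Part of the Mcpt8 window lies inside the gene as GENCODE places it. Capitals mark the GATA motif, searched on either strand as AGATAA, as the same hexamer ending in G (AGATAG), and with a first T as TGATAA and likewise as TGATAG. These are letters that GATA factors are known to bind.
Ms4a2 (chr19:11623720-11623969, minus strand): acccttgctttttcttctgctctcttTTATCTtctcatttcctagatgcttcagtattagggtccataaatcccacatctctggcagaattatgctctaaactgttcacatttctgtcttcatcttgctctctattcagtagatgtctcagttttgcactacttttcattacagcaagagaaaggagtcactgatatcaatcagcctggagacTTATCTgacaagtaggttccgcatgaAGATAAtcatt
Fcer1a (chr1:173227230-173227479, minus strand): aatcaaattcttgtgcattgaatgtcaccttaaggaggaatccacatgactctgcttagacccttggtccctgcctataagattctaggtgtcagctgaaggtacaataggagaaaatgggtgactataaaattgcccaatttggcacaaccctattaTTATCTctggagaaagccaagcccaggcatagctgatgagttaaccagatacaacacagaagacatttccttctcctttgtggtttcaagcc
Cpa3 (chr3:20242182-20242431, minus strand): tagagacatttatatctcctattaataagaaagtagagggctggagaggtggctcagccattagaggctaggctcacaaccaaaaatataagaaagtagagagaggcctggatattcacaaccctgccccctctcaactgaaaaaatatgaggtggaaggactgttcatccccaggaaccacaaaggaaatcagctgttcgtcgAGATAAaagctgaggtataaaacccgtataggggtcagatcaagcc
Prss34 (chr17:25298144-25298393, plus strand): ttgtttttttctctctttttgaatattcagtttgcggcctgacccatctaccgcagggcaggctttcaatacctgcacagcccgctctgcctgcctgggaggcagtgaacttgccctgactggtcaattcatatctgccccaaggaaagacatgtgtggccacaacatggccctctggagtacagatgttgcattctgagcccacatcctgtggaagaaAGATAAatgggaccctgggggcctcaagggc
Mcpt8 (chr14:56085198-56085447, minus strand): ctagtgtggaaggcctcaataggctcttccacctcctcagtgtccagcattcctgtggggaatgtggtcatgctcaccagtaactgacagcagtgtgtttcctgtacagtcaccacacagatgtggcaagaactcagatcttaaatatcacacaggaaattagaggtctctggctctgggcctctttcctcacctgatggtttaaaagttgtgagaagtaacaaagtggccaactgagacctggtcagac
Gata2 (chr6:88193641-88193890, plus strand): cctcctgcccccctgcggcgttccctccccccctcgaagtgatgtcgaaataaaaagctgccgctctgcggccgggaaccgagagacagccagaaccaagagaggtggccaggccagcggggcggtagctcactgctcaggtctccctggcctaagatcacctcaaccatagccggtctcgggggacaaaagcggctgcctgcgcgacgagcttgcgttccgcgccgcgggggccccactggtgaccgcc

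Ms4a2 held 3 matches, beginning 224, 37 and 11 bases before the start. Fcer1a held 1 at 92 bases, Cpa3 1 at 46 bases and Prss34 1 at 31 bases. No match was found in the windows of Mcpt8 and Gata2. RefSeq windows of 300 bases (250 before the start and 50 after it) were at hand for 18 of the 20 genes, not for Egr1 and Ccl4. They made up 24 windows, of which 6 (25.0%) held the motif, against 29.8% of the 32851 windows of all genes. Besides the 4 genes above, the matches were in Csrp3 and Cyp11a1. Counted by window, the share over the list was thus not above that over all promoters. A share counted by gene was not computed over all genes. The motif of RUNX factors, TGTGGT on either strand, was searched because Runx1 is on the list, a choice made after the list was seen; it was found in 7 of the 24 windows against 16.8% of all windows. The 7 windows belonged to Cpa3, Csrp3, Ctsg, Cyp11a1, Fcer1a, Mcpt8 and Runx1. A match is a run of letters and not a bound site.

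Granule proteases stood at the head of the list. Prss34, which codes for a trypsin-like serine protease of mouse basophils (mMCP-11), had a log2 fold change of 7.33 and an area under the receiver operating characteristic curve (AUC) of 0.955. An AUC of 1 means that every cell of the population had a higher level of the gene than every other cell, and 0.5 means no separation. Prss34 was above 0 in 95.3% of the cells of the population and in 45.4% of all others. Mcpt8, the gene of the basophil serine protease mMCP-8, had a log2 fold change of 7.28 and an AUC of 0.985, with shares of 98.4% inside and 57.7% outside. These were the highest fold changes of the 293 entries. Cpa3, the gene of carboxypeptidase A3, which mast cells and basophils store in granules, followed at 4.66 with an AUC of 0.992 and shares of 99.2% and 49.2%. Ctsg, the gene of cathepsin G, a serine protease of the primary granules of neutrophils, stood far lower at 2.81 with an AUC of 0.931 and shares of 97.8% and 60.4%. The fold changes thus separated the basophil proteases Prss34 and Mcpt8 from Cpa3 and, further down, from Ctsg.

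Of 16 granule protease gene names on the fixed list, these 4 were listed here and 2 more elsewhere, Elane and Prtn3. In GRCm38 (GENCODE M21), Mcpt8 lies on chromosome 14 from 56082166 to 56085273 and Ctsg from 56099881 to 56102574, on the same strand, with 14607 bases and no other protein-coding gene between them. The mast cell protease genes Mcpt1, Mcpt2 and Mcpt4 and Gzmb, the granzyme B gene, are also on the fixed list and were not listed for any population. Prss34 lies on chromosome 17 from 25298394 to 25300165, 43079 bases from the mast cell tryptase gene Tpsab1, with Prss28 and Prss29 between them. Neither Tpsab1 nor the next tryptase gene, Tpsb2, was listed. Cpa3 lies apart from these on chromosome 3 from 20215620 to 20242181.

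**Figure D1:**
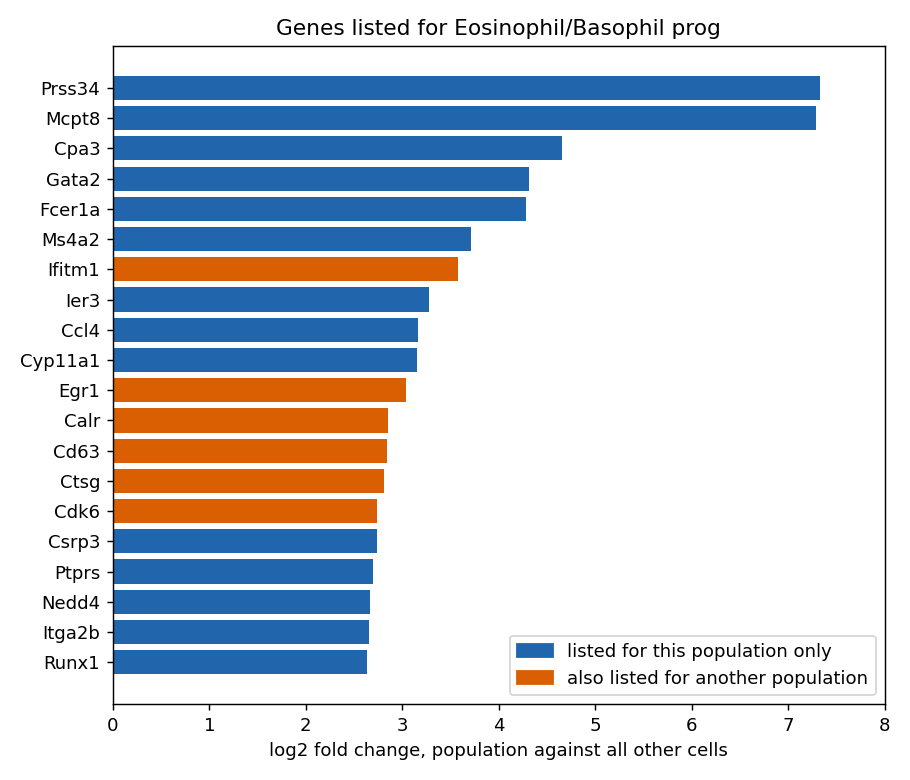
Log2 fold change (x axis) of the 20 genes listed for Eosinophil/Basophil prog, all mice pooled and the population against all other cells; blue bars are genes listed for this population only and orange bars genes also listed for another. Prss34 (7.33) and Mcpt8 (7.28) stand apart from Cpa3 (4.66), and the lowest is Runx1 (2.63).

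The IgE receptor was represented by 2 of its chains. Fcer1a, the gene of the α chain that binds IgE, had a log2 fold change of 4.28 and an AUC of 0.977. It was above 0 in 97.8% of the cells inside and 23.6% outside, the lowest share outside among the 20 genes. Ms4a2, the gene of the β chain, which amplifies the signal of the receptor, had a log2 fold change of 3.71, an AUC of 0.987 and shares of 98.6% and 57.4%. Both chain genes were thus above 0 in nearly all cells of the population, but Fcer1a was above 0 in far fewer of the other cells than Ms4a2. For the reason given further below, the shares outside are not read as expression. The remaining chain gene, Fcer1g, was not listed for any population. Of 17 genes of IgE receptor signalling, Fyn alone was listed elsewhere and 14 were listed nowhere. No gene of the 16 cytokine receptors was listed here, Il3ra, Csf2rb and Il5ra included, and none of the 10 genes of histamine and lipid mediators, such as the histidine decarboxylase gene Hdc, was listed anywhere. Fcer1a lies on chromosome 1 from 173221284 to 173227214 and Ms4a2 on chromosome 19 from 11615523 to 11623719.

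Transcription factors were led by Gata2, which is needed for blood stem cells and for the basophil and mast cell lineages. Gata2 had the highest AUC of all 293 entries, 0.999, with a log2 fold change of 4.32, and was above 0 in 100% of the cells inside and 45.9% outside. Runx1, a master factor of blood formation, stood at 2.63 with an AUC of 0.931, and Egr1, an immediate early factor, at 3.03 with 0.936. Gata2 was thus nearly a perfect separator, whereas Runx1 and Egr1 were above 0 in 71.9% and 78.8% of all other cells. Of 38 factors of stem and myeloid progenitors, these 3 were listed here and 8 others elsewhere. Those included Cebpe, Irf8, Myb and Hlf; Gata1, the erythroid, eosinophil and mast cell relative of Gata2, was listed for no population. Gata2 lies on chromosome 6 from 88193891 to 88207032 and Runx1 on chromosome 16 from 92601466 to 92826149.

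The other 11 genes had log2 fold changes from 2.65 to 3.58. Ifitm1, an interferon-inducible membrane protein gene, led them at 3.58, followed by the immediate early gene Ier3 at 3.28. Ccl4, which codes for the chemokine MIP-1β, had 3.16 but the lowest AUC of the 20, 0.848, with shares of 90.0% inside and 65.8% outside. Next came Cyp11a1, whose enzyme makes pregnenolone from cholesterol in steroid-forming tissues, at 3.15 with shares of 94.5% and 36.9%. These genes come from separate processes, and only Ier3, Ifitm1, Ccl4, Itga2b, Ptprs and Cdk6 of the 11 stood on a fixed list.

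Itga2b codes for the integrin chain CD41 of platelets and early progenitors. It had a log2 fold change of 2.65 but an AUC of 0.964, with shares of 95.9% and 25.6%. Csrp3, known as the gene of muscle LIM protein, was at 2.73 with shares of 87.3% and 24.8%, the lowest share inside of the 20. Low fold changes thus went with low shares outside for both, but not over the whole list. Runx1 had the lowest fold change, 2.63, with 71.9% outside, and Fcer1a the lowest share outside, 23.6%, at 4.28. The remaining genes were Calr (calreticulin, a chaperone of the endoplasmic reticulum) at 2.85, Cd63 (a tetraspanin of granule membranes that reaches the basophil surface on activation) at 2.84 and Cdk6 (a kinase of the G1 phase) at 2.74. Ptprs, a receptor phosphatase gene that is also known from plasmacytoid dendritic cells, had 2.70 and Nedd4, a ubiquitin ligase gene, had 2.66. All 20 are protein-coding genes, spread over 14 chromosomes, and none overlapped another protein-coding gene on its own strand.

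Markers of other cell types were few among the 20. Of 7 megakaryocyte genes Itga2b was listed here, of 5 primary granule gene names Ctsg and of 6 plasmacytoid dendritic genes Ptprs. Of the lists of 10 erythroid, 8 mature neutrophil, 7 monocyte and macrophage, 5 B cell, 4 T and NK cell and 3 plasma cell genes, none was listed here. Of 20 cathepsin and cystatin gene names, the proteases that CST6 inhibits among them, Ctsg alone was listed here. Cathepsin G is a serine protease and no cysteine protease. Of 20 stem and progenitor genes Gata2, Cdk6 and Ifitm1 were listed, and of 16 immediate early and stress genes Egr1 and Ier3. Of 16 cell cycle genes, Cdk6 alone was listed here, and Mki67 and Top2a were listed for other populations. The part that cells of another type may have in these values was not tested.

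As a set, the 20 genes had a median log2 fold change of 3.09 against 2.06 over all 293 entries and a median AUC of 0.95 against 0.874. All 20 had a log2 fold change of at least 2, which 53.9% of all entries had, and 11 had at least 3, which 18.1% of all entries had. Fold changes and AUC come from the same comparison as the list itself, so the counts describe the list and are not a test. The entry with the lowest AUC was Ccl4 at 0.848, after Csrp3 at 0.878, and the values of genes beyond the 20 are not known here. Myeloid prog, also with 20 entries, had a median log2 fold change of 2.05 and a median AUC of 0.915, and Lymphomyeloid prog II, with 20 as well, had 2.00 and 0.85. The median was higher than that of Eosinophil/Basophil prog only in Dendritic cells, at 3.21. The differences between populations were not tested, since genes are not replicates.

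Many of the genes were also above 0 in a large part of the other cells. The median share outside was 57.6% for the 20 genes, 65.1% for Myeloid prog and 59.3% for Lymphomyeloid prog II. At least 50% of the other cells had a value for 13 of the 20 genes, and 81.6% of all 293 entries were of this kind. The shares outside ran from 23.6% for Fcer1a, 24.8% for Csrp3 and 25.6% for Itga2b to 78.8% for Egr1 and 80.1% for Calr. Even Mcpt8, a gene of basophils, was above 0 in 57.7% of the cells outside the population. It is not known here if the shares were taken from UMIs or after integration of the samples, and a share in a cell type that should lack the gene is not in the table, so the shares outside are not read as expression. The part of free RNA in them was not tested.

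**Figure D2:**
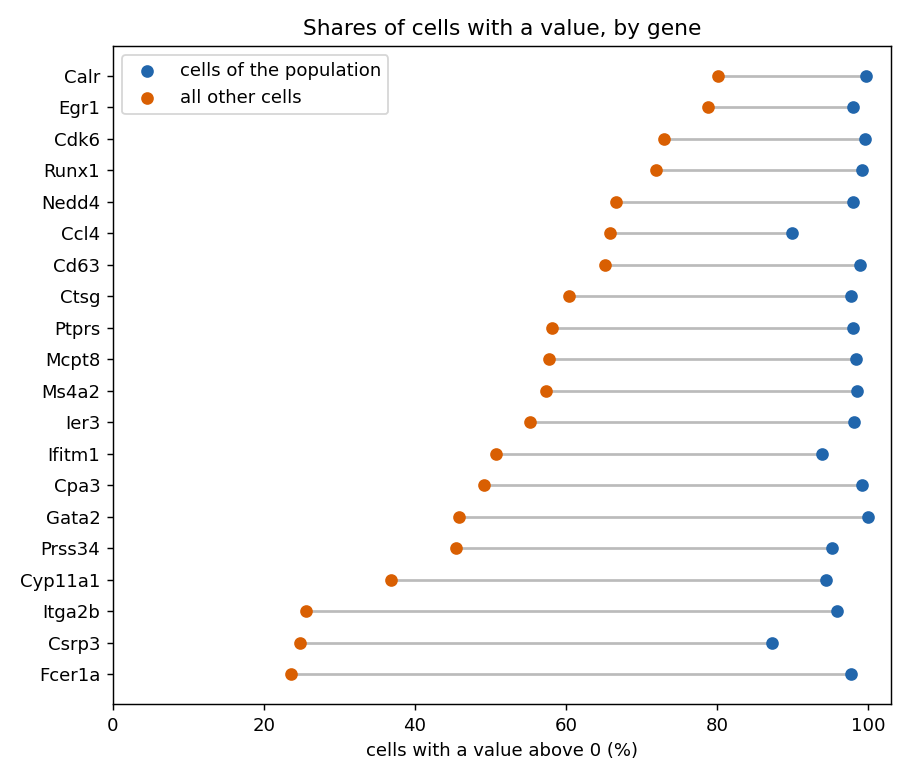
Share of cells with a value above 0 (x axis, in %) for each of the 20 genes, in the cells of the population (blue) and in all other cells (orange), all mice pooled. Shares inside lie between 87.3% and 100%, while those outside range from 23.6% for Fcer1a to 80.1% for Calr.

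How much of the separation came from the presence of a value and how much from its height can be read from the AUC under 2 conditions. If only presence counted, the AUC would be 0.5 plus 0.5 times the difference of the shares, both as fractions. This requires that shares and AUC were taken from the same values and that no value lay below 0. Whether this was so is not known here. For Gata2 this gives 0.771 against the deposited 0.999, and for Mcpt8 it gives 0.704 against 0.985. The height of the values thus added 0.229 for Gata2 and 0.282 for Mcpt8. For Fcer1a presence alone gives 0.871 of 0.977, for Itga2b 0.852 of 0.964 and for Csrp3 0.813 of 0.878. Under these conditions, these 3 genes had the smallest parts beyond presence. Presence also gave the larger part of the AUC above 0.5 for Gata2, Cpa3, Prss34, Cyp11a1 and Ifitm1. For the other genes of the list, Mcpt8 included, height gave the larger part. The opposite end was held by Calr, with 0.599 of 0.953, and Egr1, with 0.596 of 0.936. Both were above 0 in most cells inside and outside, and under the same conditions separated the population mainly by their height. The part beyond presence ran from 0.0655 (Csrp3) to 0.355 (Calr), with a median of 0.243 against 0.229 over all 293 entries.

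**Figure D3:**
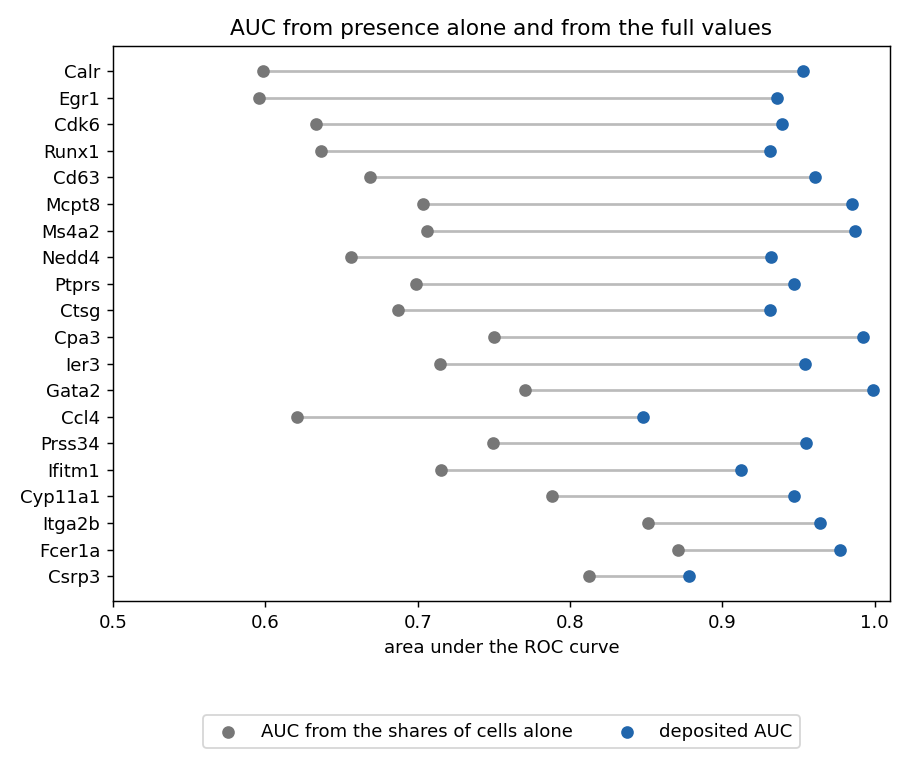
AUC (x axis) of each of the 20 genes as deposited (blue) and as it would be from the shares of cells with a value alone (grey), ordered by the distance between them. The distance is 0.0655 for Csrp3 and 0.355 for Calr.

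The ranking of the genes depended on the measure. By AUC the first 5 were Gata2, Cpa3, Ms4a2, Mcpt8 and Fcer1a, and by log2 fold change they were Prss34, Mcpt8, Cpa3, Gata2 and Fcer1a, with 4 in common. By the difference of the shares they were Fcer1a, at 74.2 percentage points, Itga2b at 70.3, Csrp3 at 62.5, Cyp11a1 at 57.6 and Gata2 at 54.1, of which 2 were among the first 5 by AUC. Prss34, first by log2 fold change, was the eighth by AUC. Fcer1a and Gata2 were among the first 5 by all 3 measures.

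The same shares limit how large the population can be. For a gene listed for several populations, the share inside and the share outside must give the same overall share for each of them, which ties the sizes of these populations together. With the 50 genes of this kind, shares rounded to 3 decimals and all 17 populations adding up to 100% of the cells, the population held between 0.177% and 1.09% of all cells. All 50 genes could be met at once, so the shares do not contradict each other. Without the total of 100% the limits were 0% to 2.24%, and with shares known only to 0.1 percentage points on either side they were 0% to 1.66%. Its highest possible share was below the lowest possible share of 15 of the other 16 populations, and of 10 under either of these looser settings. The exception among the 16 in the former case was Lymphomyeloid prog II, with 0.971% to 1.98%, while Myeloid prog held 3.11% to 4.01%. The limits cover rounding only and assume that every cell belongs to 1 of the 17 populations. They describe all mice pooled after density separation and sorting, whose part in the size was not tested. This calculation was added after the data were seen.

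**Figure D4:**
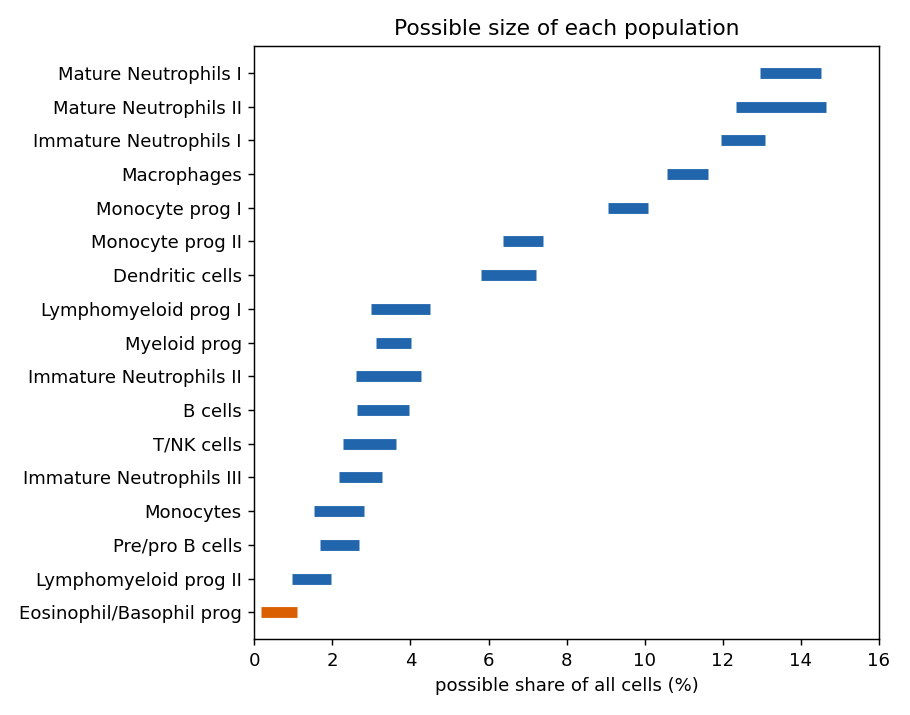
Lowest to highest share of all cells (x axis, in %) that each of the 17 populations can hold given the shares of 50 genes listed for more than 1 population, all mice pooled. Eosinophil/Basophil prog (orange) spans 0.177% to 1.09%, next to Lymphomyeloid prog II at 0.971% to 1.98%.

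Within these limits, most cells with a value for these genes lay outside the population. Of all cells above 0 for Mcpt8, between 0.302% and 1.84% would be inside, and for Gata2 between 0.386% and 2.34%. The highest was Fcer1a, with 0.731% to 4.36%, and the lowest upper limit was that of Egr1, at 1.35%. Without the total of 100%, the upper limit was 8.66% for Fcer1a and 3.75% for Mcpt8. By these shares, a cell with a value above 0 for one of these genes was thus far more often outside the population than inside. It is not known here if the shares were taken from UMIs or after integration. A value above 0 outside the population is therefore not read as expression of the gene.

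Of the 20 genes, 14 were listed for this population only and 6 also for another. Over the whole table, 184 of the 293 entries were of genes listed for 1 population only. Counted by gene and not by entry, 21.4% of the 234 different genes were listed more than once. The 14 had log2 fold changes from 2.63 to 7.33 and the 6 from 2.74 to 3.58. Myeloid prog shared Calr, Cd63, Cdk6 and Ctsg, which were 20% of each list. Lymphomyeloid prog II shared Cdk6, Egr1 and Ifitm1, which were 15% of each list. Monocyte prog II shared Ctsg, Immature Neutrophils III shared Cd63, and the other 12 populations shared no gene with it. Cdk6 alone was common to the population and to both compared progenitor populations.

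Among the populations that list each gene, Ctsg was the only one of the 6 with a higher log2 fold change elsewhere. It had 3.97 in Myeloid prog against 2.81 here and 2.03 in Monocyte prog II. Its AUC was 0.977 in Myeloid prog and 0.931 here. Cd63 had 2.84 here, 1.90 in Myeloid prog and 1.33 in Immature Neutrophils III, and Calr had 2.85 here and 2.01 in Myeloid prog. For Cdk6 the values were 2.74 here, 2.17 in Myeloid prog and 2.16 in Lymphomyeloid prog II, although its AUC was 0.94 in Myeloid prog and 0.939 here. Ifitm1 had 3.58 here and 2.34 in Lymphomyeloid prog II, and Egr1 had 3.03 and 2.56. Each population is compared with all cells outside it, so that these sets of other cells overlap, and the differences between the populations were not tested.

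**Figure D5:**
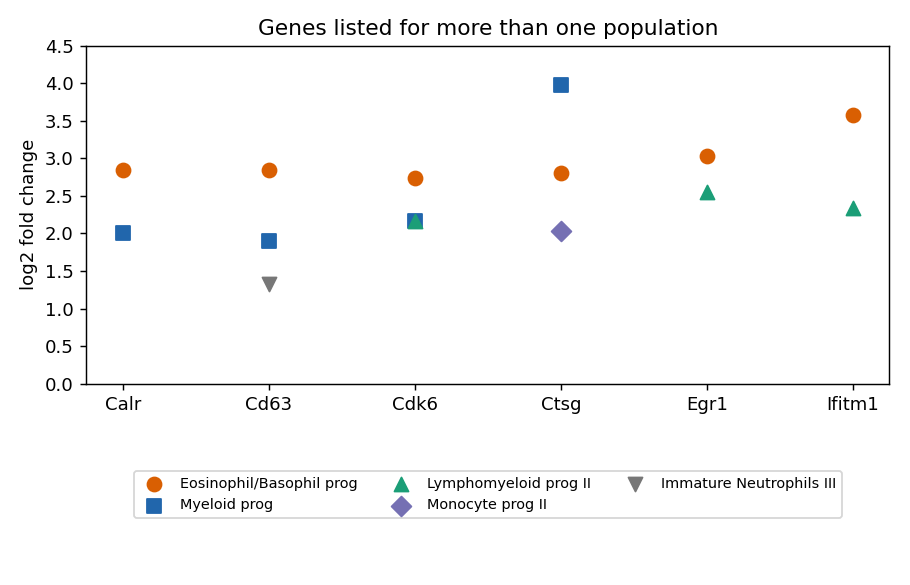
Log2 fold change (y axis) of the 6 genes listed both for Eosinophil/Basophil prog (orange circles) and for another population (other markers), each population against all cells outside it and all mice pooled. Ctsg is higher in Myeloid prog (3.97) than in Eosinophil/Basophil prog (2.81). Among the populations that list them, the 5 other genes are highest in Eosinophil/Basophil prog.

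The genes at the head of the compared lists were of other kinds. Myeloid prog was led by the neutrophil protease and peroxidase genes Elane at 4.83, Mpo at 4.70, Prtn3 at 4.08 and Ctsg at 3.97, followed by Ms4a3 at 3.30, a gene of granulocyte and monocyte progenitors from the same family as Ms4a2. Of these 5, Ctsg alone was listed for Eosinophil/Basophil prog. Lymphomyeloid prog II was led by Egr1 at 2.56, Ifitm1 at 2.34, the stem cell factor gene Hlf at 2.33, the carbonic anhydrase gene Car2 at 2.30 and the adhesion receptor gene Adgrg1 at 2.17. Of these 5, Egr1 and Ifitm1 were listed for Eosinophil/Basophil prog as well. No gene of Lymphomyeloid prog II reached a log2 fold change of 3, against 5 in Myeloid prog and 11 in Eosinophil/Basophil prog.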

How the data were processed

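Mononuclear bone marrow cells of 9 mice had been profiled with the Chromium 3′ kit. In the submitters' processing notes the tools are Cell Ranger and Seurat 4, with mm10 as genome build. Per the study's methods, cells were filtered, samples were integrated by reciprocal principal component analysis and clustered, and markers were sought with MAST; the columns of the deposited table are those of Seurat's ROC test. The table gives AUC and power as deposited scores, the difference as a deposited natural log value, the fold change as a deposited log2 value, and the fraction of cells above 0, printed as a percentage. Within 1e-09, power was 2 × AUC − 1 and the natural log value was the log2 value in natural units in all 293 entries. How doublets were treated is not given in these sources, and cell barcodes were not analysed here. The table has 0 columns per sample.

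Population names were compared without regard to case, spaces and punctuation. Medians, shares, overlaps, motif matches and a linear programme for population sizes, checked on simulated data, were computed with Python 3.11.15, pandas 2.3.3 and SciPy 1.17.1. All 20 genes of the population were named, as were the 5 highest fold changes and the shared genes of both compared populations. Members and gene lists were chosen with earlier results of these data known. No significance test was run.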

Additional observations from a re-analysis of the deposited data

How the results depend on the processing

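No paired analysis was possible because the table pools all mice, and for the same reason no replicate could be left out. The median log2 fold change was 3.22 without the genes shared with another population, 2.84 without the 5 marker genes and 4.00 for the 10 genes of highest AUC, against 3.09. The median AUC was 0.955 without shared genes and 0.939 without the marker genes, and the median difference of the shares was 46.5 and 37.4 percentage points, against 41.0. The number of genes past the log2 fold change threshold fell from 20 at 2 to 11 at 3 and 5 at 4. With each list kept to its 10 highest log2 fold changes, 1 gene was shared with another population instead of 6. Fewer genes were compared, and of the 6 only Ifitm1, at rank 7, was among the 10 highest here. Ordered by the difference of shares, 2 of the first 5 genes by AUC kept a place among the first 5. The share of windows with a GATA motif was 16.7% with AGATAA or TGATAA only, against 18.6% of all windows, and 25.0% with bases before the start only, against 26.5%. The limits of the population's size, added after the data were seen, were 0% to 2.24% without the total of 100% and 0% to 1.66% with shares known to 0.1 percentage points on either side, so a lower limit above 0 rests on both assumptions; the number of populations that must be larger was 10 instead of 15 in either case. The planned alignment of granule protease proteins was not run, since no protein table was used here.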
